A study of Homo sapiens with 4 samples.

Results

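The regions described here are stretches of chromatin that gained accessibility after all 3 anthracyclines tested in K562, an established cell line from a human chronic myelogenous leukaemia. They were chosen by the authors' calls of gain over control, as the regions with the same chromosome, start and end in each of the authors' 3 lists of gained regions. Of 100205 regions in any list, 28735 (28.7%) met this rule and are called shared regions below. Presence in a list rests on the authors' p-value and fold over control, so the gain itself is given as a description and was not tested again.

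Accessibility was measured by ATAC-seq, in which a transposase inserts sequencing adapters into exposed DNA. The control cells received no drug, and the treated cells received 1 drug for 4 h. These were N,N-dimethyldoxorubicin (diMe-Doxo) and doxorubicin (Doxo), each at 10 µM, and aclarubicin (Acla) at 20 µM. The labels give 1 sample per group, and each list carries values for 2 treated and 2 control libraries. They do not say that the 2 libraries came from separate cultures, so p-values measure only the spread between these libraries, which may be technical. Because the lists hold gained regions only, the identity of the cells could not be checked from marker loci.

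Anthracyclines are planar compounds that slip between DNA base pairs and are used against leukaemias and solid tumours. Doxorubicin traps topoisomerase II after it has cut DNA, which leaves double-strand breaks, and it can also evict histones from chromatin. Aclarubicin and N,N-dimethyldoxorubicin are known to evict histones while causing few or no such breaks. N,N-dimethyldoxorubicin differs from doxorubicin by a pair of methyl groups on the amine of its sugar. Only Doxo and diMe-Doxo were given at the same dose, so these were compared with a test, and the Acla values are set beside them.

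Most shared regions had no called peak without treatment. In 25527 of them (88.8%) the authors called no peak in either control library, in 2271 (7.90%) a peak in 1 control library and in 937 (3.26%) a peak in both. The control libraries held a median of 1 read each per region, and 9025 regions (31.4%) stood at 1 read in both. This is the lowest value in the lists, and a region without a read may be listed at it, so folds over these controls depend on that floor. A smaller group was already covered, with 10 or more control reads over both libraries in 2877 regions (10.0%). The control reads were identical in the 3 lists at all 28735 regions, so the 3 gains share their controls and are not independent of each other.

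Before scaling, treated libraries held many times more reads there than the control libraries. The Doxo libraries had a median of 34 and 36 reads per region, the diMe-Doxo libraries 78 and 63, and the Acla libraries 119 and 102. Summed over the shared regions, reads ranged from 1684978 to 4285678 per treated library, against 75951 and 65513 in the control libraries. Total library depth is unknown, so these read numbers do not rank the drugs. Against the authors' folds they overstate the gain, since the authors' factors weighted 1 control read above 1 treated read. In the Acla list 1 read counted as 0.37 and 0.38 in the treated libraries and as 2.85 and 2.44 in the controls. In the diMe-Doxo list the values were 0.45 and 0.46 against 2.41 and 2.03, and in the Doxo list 0.71 and 0.70 against 1.44 and 1.39. The shared regions made up 43.1% of the 66720 regions in the Doxo list, 54.4% of the 52784 in the diMe-Doxo list and 46.9% of the 61295 in the Acla list. They held 38.2% and 37.7% of the listed signal in the Doxo libraries, 65.9% and 65.3% in the diMe-Doxo libraries and 59.0% and 62.1% in the Acla libraries. In the Doxo list most of the signal therefore lay outside the shared regions, and in the other lists most lay inside them.

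Shared regions were wider than those gained with fewer drugs. Their median width was 1019 bp (quartiles 740 and 1368 bp, range 82 to 5231 bp), and the median of every other set of regions lay between 600 and 821 bp. Of the shared regions, 18.6% spanned 1500 bp or more, against 13.3% of the 4405 regions gained with Doxo and diMe-Doxo only and 6.93% of the 14667 gained with diMe-Doxo and Acla only. Read density did not separate the sets in the same way. With Doxo it was lower at shared regions (medians 36.0 and 37.1 reads per kb) than at the 29528 regions gained with Doxo alone (77.1 and 85.3 reads per kb). With diMe-Doxo it was 81.2 and 66.2 reads per kb at shared regions, beside 71.2 and 60.7 at the 4977 regions gained with that drug alone. At regions of Doxo and diMe-Doxo only it was higher, at 88.3 and 73.6, and at those of diMe-Doxo and Acla only it was 59.1 and 49.8. With Acla it was 125.6 and 107.1 reads per kb, beside 108.4 and 77.2 at the 13841 regions gained with Acla alone. It was 110.5 and 80.9 at regions of diMe-Doxo and Acla only and 99.1 and 83.5 at those of Doxo and Acla only.

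In the authors' deposited tables the median log2 fold over control at the shared regions reached 3.13 in the Doxo list, 2.82 in the diMe-Doxo list and 2.95 in the Acla list. The regions were selected on these values, which differ in spread as well as in middle. In the authors' deposited tables a log2 fold of 4 or more was reached by 22.1% of shared regions with Doxo, 7.28% with diMe-Doxo and 12.9% with Acla. It was reached with all 3 drugs by 1140 shared regions (3.97%) of the authors' deposited tables. The authors' false discovery rate (FDR) was at most 0.05 in all 3 lists for 20997 (73.1%), so the rest owe their place in at least 1 list to the unadjusted p-value. Peaks were called in all 6 treated libraries at 10950 shared regions (38.1%) and in at least 1 library of each drug at 20123 (70.0%). The drug most often without a called peak was Doxo, with none in either library at 5400 shared regions (18.8%), against 1913 (6.66%) for diMe-Doxo and 2714 (9.44%) for Acla.

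The strongest gains common to all drugs fell on loci with 1 read in each control library. The region whose smallest gain was highest lay on chromosome 10 at 82841853-82844087 (GRCh37, as are all positions here). It held 127 and 165 reads with Doxo, 319 and 276 with diMe-Doxo, and the Acla libraries held 550 and 465. All 6 treated libraries were thus far above both controls, and the authors' deposited tables give log2 folds of 6.19, 5.92 and 6.18. On chromosome 4 at 179162106-179163641 the reads were 169 and 173, 320 and 263, and 473 and 362 for the same drugs in the same order. On chromosome 1 at 186481753-186483045 they were 101 and 114, 285 and 261, and 468 and 400. Both had a peak in every treated library and none in a control library.

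The values just inside the limits of the lists were far smaller. On chromosome 8 at 133577334-133577817, where the authors' deposited table gives p = 0.05 for Doxo, the Doxo libraries held 20 and 24 reads and the controls 5 and 1. On chromosome 1 at 48509126-48509961 the authors' deposited table gives p = 0.05 for Acla, with 90 and 104 reads against 7 and 1. On chromosome 5 at 608274-609266 the authors' deposited table gives a log2 fold of 1.5 for Acla, with 122 and 146 reads against 4 and 10. On chromosome 14 at 77736484-77737665 the authors' deposited table also gives 1.5 for Acla, with 94 and 101 reads against 4 and 6. Such regions could still have a larger gain with another drug, as on chromosome 14, where the authors' deposited table gives 3.16 for Doxo. On chromosome 8 they did not, and the authors' deposited tables give log2 folds of 1.86, 1.85 and 1.75 for Doxo, diMe-Doxo and Acla. Regions just outside the limits were not analysed here.

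To rank the drugs within a region, the signal of each library was divided by that library's total over its own list and given in ppm of that total, here called the list share. The median list share of the shared regions was 7.72 and 7.44 ppm in the Doxo libraries, 18.2 and 17.8 ppm in the diMe-Doxo libraries and 16.4 and 17.4 ppm in the Acla libraries. By mean list share diMe-Doxo was highest at 14217 shared regions (49.5%), Acla at 10925 (38.0%) and Doxo at 3593 (12.5%), and Doxo was lowest at 82.2%. The most frequent orders were diMe-Doxo, Acla, Doxo (12819 regions, 44.6%) and Acla, diMe-Doxo, Doxo (10799 regions, 37.6%). These ranks are part of how the regions were described and carry no test.

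The ranking depended on the scale. A list share falls when a list holds much signal elsewhere, and the Doxo list held most of its signal outside the shared regions. When the signal was instead divided by the library's total over the shared regions alone, Doxo was highest at 6804 regions (23.7%), diMe-Doxo at 9654 (33.6%) and Acla at 12277 (42.7%). When the authors' library factors were tied to the controls that the lists share, Doxo was highest at 13581 (47.3%), Acla at 11038 (38.4%) and diMe-Doxo at 4116 (14.3%). The number led by Acla thus stayed within 1.5 times of its value on all 3 scales, while the numbers led by Doxo and by diMe-Doxo did not. For this reason leaders and list shares below hold for the list-share scale unless another is named, and comparisons along the genome also use a relative ratio: the log2 ratio of 2 drugs in a region minus the median of that ratio over all shared regions. A factor applied to all values of a drug leaves such a ratio as it is.

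At many regions the lead by list share held in both libraries of the leading drug. With 2 libraries per drug this is a description and carries no test. Both libraries of the leading drug lay above the other 4 treated libraries by list share at 2847 shared regions led by Doxo (9.91%), 8686 led by diMe-Doxo (30.2%) and 6872 led by Acla (23.9%). Between pairs of drugs, both Doxo libraries lay above both diMe-Doxo libraries at 3010 shared regions (10.5%), against 12.2% of all regions in both lists. They lay below them at 23762 (82.7%), against 79.8%. Both Doxo libraries lay above both Acla libraries at 3980 shared regions (13.9%, against 14.1%) and below them at 21964 (76.4%, against 75.6%). Both diMe-Doxo libraries lay above both Acla libraries at 10741 (37.4%, against 32.7%) and below them at 7070 (24.6%, against 25.6%). Those lists consist largely of shared regions, so the values were also set beside the regions of the same 2 lists that the remaining list lacked. There Doxo lay above diMe-Doxo at 1032 of 4405 regions (23.4%), Doxo above Acla at 648 of 4052 (15.99%) and diMe-Doxo above Acla at 3471 of 14667 (23.7%). Shared regions thus had fewer Doxo leads over diMe-Doxo and more diMe-Doxo leads over Acla than these, a difference given as a description.

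The log2 ratio of list shares spread more between Doxo and either other drug than between diMe-Doxo and Acla. Its standard deviation over shared regions was 0.91 between Doxo and diMe-Doxo, 1.09 between Doxo and Acla and 0.49 between diMe-Doxo and Acla. Between the 2 libraries of a drug it was 0.65 in Doxo, 0.36 in diMe-Doxo and 0.38 in Acla. The ratio between diMe-Doxo and Acla thus had the spread nearest to that between libraries of 1 drug. The Doxo ratios also had a long upper tail, with a median of -1.32 for Doxo over diMe-Doxo and a 95th percentile of 0.81.

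**Figure D1:**
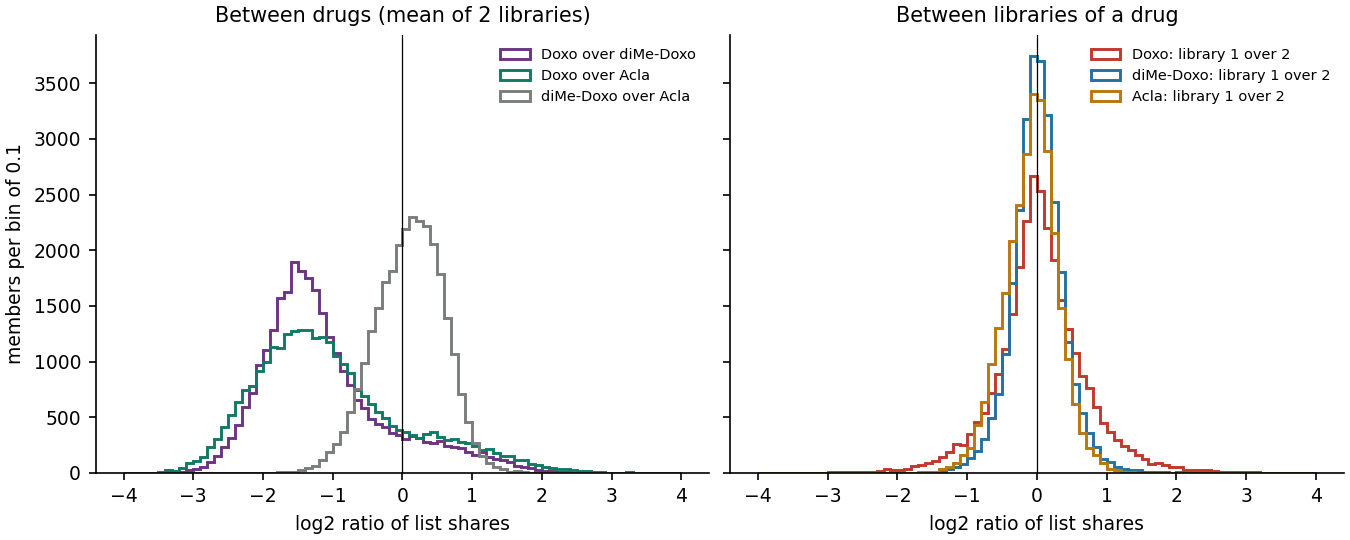
Number of shared regions (members, y axis) by log2 ratio of list shares (x axis, bins of 0.1), between drugs (left, mean of 2 libraries) and between the libraries of each drug (right). The curves for Doxo over diMe-Doxo and over Acla are wide and shifted below 0 with a tail above it, with standard deviations of 0.91 and 1.09, against 0.49 for diMe-Doxo over Acla.

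The same regions differed between drugs in separate libraries. Across the 28735 shared regions, Pearson's r between the ratio from library 1 of each drug and that from library 2 was 0.73 for Doxo over diMe-Doxo, 0.78 for Doxo over Acla and 0.56 for diMe-Doxo over Acla. With the libraries paired the other way it was 0.73, 0.82 and 0.57. These values run across regions of the same few libraries, which are not independent replicates, and are given as a description. For Doxo over diMe-Doxo the regions lay close to the diagonal where Doxo was high and scattered widely where Doxo was low.

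**Figure D2:**
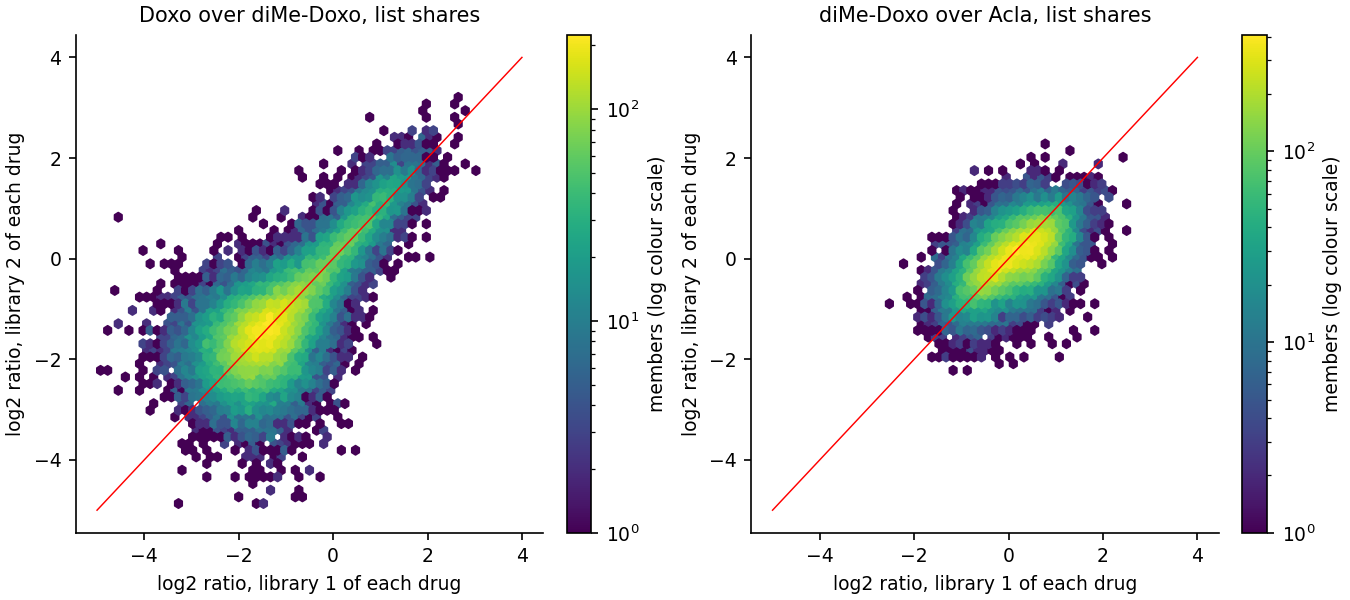
Log2 ratio of list shares in each shared region (member) from library 1 of each drug (x axis) and from library 2 of each drug (y axis), coloured by the number of regions on a log scale, with the line of equality in red. Doxo over diMe-Doxo (left, r = 0.73) extends along the line to values above 2, and diMe-Doxo over Acla (right, r = 0.56) forms a compact cloud near 0.

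Regions where 1 drug stood far above the others are best seen in single loci. On chromosome 9 at 34370925-34373077 the Doxo libraries held 346 and 419 reads (78.5 and 86.6 ppm), the diMe-Doxo libraries 54 and 48 (12.6 and 13.6 ppm) and the Acla libraries 66 and 55 (9.08 and 9.39 ppm). The controls held 2 and 1 reads, and a peak was called in both Doxo libraries and in no library of the other drugs. The Doxo values did not overlap those of the other drugs, and the log2 difference from diMe-Doxo on the control scale was 4.19 ± 0.25 (SE; edgeR quasi-likelihood test, Benjamini-Hochberg adjusted p = 6.72e-61). With list totals as library sizes the difference was 2.66 (same test, adjusted p = 1.77e-08), so the size of the p-value depended strongly on the scale. On chromosome 4 at 141208753-141211247 the reads were 698 and 810 with Doxo, 115 and 74 with diMe-Doxo, and the Acla libraries held 228 and 149. On chromosome 21 at 38599693-38600622 they were 215 and 275, 34 and 36, and 54 and 52. In both, Doxo libraries again stood apart, with list shares 6.83 and 6.48 times those of the drug with the lowest share. These regions were named for their difference between drugs, so their p-values only place them within the test of all regions.

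At the 3 loci most biased to diMe-Doxo, the Doxo libraries had the lowest mean list share, as at 82.2% of all shared regions. On chromosome 10 at 88023749-88024940 the diMe-Doxo libraries had list shares of 34.2 and 35.4 ppm, against 4.99 and 8.48 ppm with Doxo and 10.5 and 14.2 ppm with Acla. On chromosome 10 at 72043144-72044087 they had 27.0 and 31.1 ppm, against 7.04 and 4.34 ppm with Doxo and 7.57 and 12.98 ppm with Acla. On chromosome 2 at 121474234-121474861 they had 22.6 and 19.2 ppm, against 4.08 and 1.24 ppm with Doxo and 8.12 and 9.56 ppm with Acla. In each of these the diMe-Doxo libraries lay above the other 4. The relative log2 ratio of Doxo over Acla was 0.34, 0.36 and -0.52 in the same order. The Doxo values on chromosome 2 rest on 18 and 6 reads.

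Acla led most on chromosome 4 at 105013076-105014464, with 25.2 and 18.6 ppm against 2.50 and 2.48 ppm with Doxo and 7.91 and 4.81 ppm with diMe-Doxo. On chromosome 16 at 59841226-59842215 it had 19.1 and 19.3 ppm against 2.27 and 2.90 ppm with Doxo and 6.98 and 4.81 ppm with diMe-Doxo. On chromosome X at 90710745-90712083 it had 24.2 and 23.4 ppm against 3.40 and 3.51 ppm with Doxo and 9.55 and 6.23 ppm with diMe-Doxo. All 3 had at most 2 reads in each control library. At these 3 loci diMe-Doxo lay nearer to Doxo than to Acla by list share. Acla was given at a higher dose than the other drugs, so its lead is a value set beside theirs.

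Some regions took nearly the same list share with every drug. The most even lay on chromosome 22 at 20754989-20756317, with 37.2 and 39.3 ppm for Doxo, 36.3 and 41.9 ppm for diMe-Doxo and 31.7 and 45.2 ppm for Acla, so that the libraries of all 3 drugs overlapped. Next came chromosome 1 at 26671847-26672921 and chromosome 1 at 22220660-22222360, with highest over lowest mean shares of 1.03 and 1.04. Even in list share is not even on the control scale, where the log2 difference of Doxo from diMe-Doxo was 1.51, 1.58 and 1.59 in these 3 regions. Over all shared regions the highest drug's mean list share was a median of 2.88 times the lowest drug's, under 1.5 times at 2381 regions (8.29%) and 4 times or more at 6614 (23.02%).

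**Figure D3:**
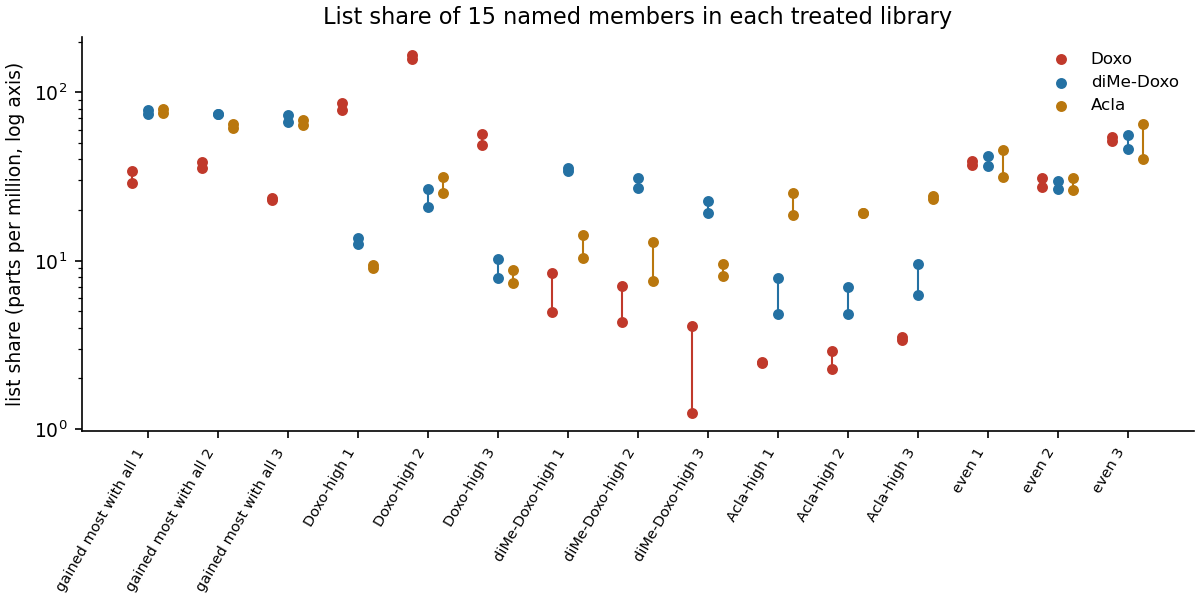
List share (ppm, log axis) of 15 named shared regions (members) in each treated library, with 2 points per drug joined by a line, grouped as gained most with all drugs, highest with 1 drug and most even. The Doxo points reach 158 and 167 ppm at the second Doxo-high region (chromosome 4 at 141208753-141211247), and the points of all 3 drugs overlap at the even regions.

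The widest and the most covered shared regions partly coincided. The widest lay on chromosome 4 at 100570438-100575669 (5231 bp), with 616 and 732 reads for Doxo, 1176 and 993 for diMe-Doxo and 891 and 800 for Acla over 50 and 18 control reads. A peak was already called there in both control libraries, and both diMe-Doxo libraries had the highest list shares. The region on chromosome 21 at 44836854-44841056 held 940 and 1090 reads with Doxo, 345 and 272 with diMe-Doxo, and the Acla libraries held 483 and 570 over 21 and 3 control reads. The region on chromosome 2 at 129024718-129028948 held 605 and 682, 466 and 350, and 369 and 453 over 5 and 15. In both of these Doxo had the highest list share. The region with the most control reads besides the widest was on chromosome 22 at 20988581-20991053, with 19 and 49 control reads and 322 and 259, 540 and 481, and 668 and 822 treated reads. On chromosome 1 at 228112533-228116420 the controls held 52 and 10 reads and the authors' deposited tables give log2 folds of 2.68, 2.14 and 1.83.

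The ranking differed with width and control state. In the 430 shared regions of 2500 bp or more Doxo was highest by list share in 32.3%, and the median relative ratio of Doxo over diMe-Doxo was 0.59 (0.54 to 0.64 over the 4 pairs of 1 library of each drug). In the 3979 regions under 600 bp diMe-Doxo was highest in 63.3%, with a median relative ratio of diMe-Doxo over Acla of 0.16 (0.09 to 0.26). Where both control libraries had a peak, diMe-Doxo was highest in 69.1% and Acla in 15.8%, against 47.5% and 40.2% where neither had one. The median relative ratio of diMe-Doxo over Acla was 0.22 (0.17 to 0.34) in the first and -0.03 (-0.04 to -0.02) in the second. That of Doxo over diMe-Doxo was 0.21 (0.18 to 0.21) with a peak in both controls and 0.13 (0.10 to 0.22) under 600 bp. By relative ratio Doxo thus stood highest in both classes, and the diMe-Doxo leads there hold for list share. The separate parts of width and control state in the ranking were not tested.

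Doxo and diMe-Doxo, given at the same dose and time, were compared at every region in both lists with edgeR's quasi-likelihood test on the recovered reads. On the control scale 7348 shared regions (25.6%) were higher with Doxo and 899 (3.13%) lower at a Benjamini-Hochberg adjusted p of at most 0.05, against 28.9% and 2.72% of all 33140 regions tested. The median log2 difference of Doxo from diMe-Doxo was 0.21 at shared regions and 0.28 over all regions tested. The direction of the median depended on the scale, with -0.12 under the trimmed mean of M values (TMM, a scaling that takes most regions as equal) and -1.31 with list totals. Under TMM 5917 shared regions (20.6%) were higher and 3478 (12.1%) lower, against 23.6% and 10.6% of all regions tested. With list totals 2284 (7.95%) were higher and 21827 (76.0%) lower, against 9.18% and 72.2%. Leaving out the first diMe-Doxo library brought the number lower from 899 to 159, and leaving out the second brought it to 513. In the 4405 regions gained with Doxo and diMe-Doxo but not Acla, 2235 (50.7%) were higher with Doxo and 1 was lower, so the shared regions held the smaller portion higher with Doxo.

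For the other 20488 shared regions (71.3%) the comparison left wide limits. The median standard error of the log2 difference was 0.38, and the 95% interval reached a median of 0.74 to either side. At 9028 shared regions (31.4%) that did not pass the test the interval lay within 1 log2 unit of 0 on both sides. The region gained most with all drugs, on chromosome 10 at 82841853-82844087, was one of these, with a difference of 0.26 and a 95% interval of -0.17 to 0.69 on the control scale (edgeR, adjusted p = 0.427). The region on chromosome 1 at 186481753-186483045 had a difference of -0.06 and an interval of -0.50 to 0.39 (edgeR, adjusted p = 0.903). These intervals hold for the control scale only, since another scale shifts the differences and can also change their standard errors. Under TMM the chromosome 10 region had -0.07 (edgeR, adjusted p = 0.726) and the chromosome 1 region -0.39 (adjusted p = 0.0429). With list totals they had -1.27 (edgeR, adjusted p = 8.24e-07) and -1.59 (adjusted p = 2.6e-07), so both were then called lower with Doxo.

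Calls that held on all 3 scales picked out 2 groups of shared regions, chosen after their values were seen. In 2284 (7.95%, against 9.18% of all regions tested) accessibility was higher with Doxo, and in 898 (3.13%, against 2.71%) it was lower. With list totals alone 2284 were higher, and on the control scale alone 899 were lower. The scales mainly shift all differences alike, so the strictest scale in each direction set these counts. Agreement between the scales thus adds no separate support, and the balance of the 2 groups depends on the scales chosen. The higher group had median list shares of 38.3 ppm with Doxo, 19.1 ppm with diMe-Doxo and 15.7 ppm with Acla. In the authors' deposited tables its median log2 folds over control were 5.13, 2.55 and 2.47. The lower group had 4.88, 28.9 and 26.9 ppm, and in the authors' deposited tables its median log2 folds were 2.59, 3.67 and 3.75. Acla, which took no part in the test, had median list shares closer to those of diMe-Doxo than of Doxo in both groups, which were chosen on the Doxo and diMe-Doxo values. The median relative log2 ratio of diMe-Doxo over Acla was 0.15 in the higher and 0.01 in the lower group. In the lower group 38.3% of regions had no peak in a Doxo library, against 1.31% in the higher group. Both groups were wider than the rest, with medians of 1192 and 1318 bp against 997 bp. They also held more reads, with medians of 119.3 and 105.3 treated reads per library against 71.8. Regions with more reads are more readily called, and the parts of width and read number were not tested.

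The regions lower with Doxo at the lowest adjusted p had few Doxo reads and many with the other drugs. On chromosome 8 at 118488620-118490969 the Doxo libraries held 20 and 6 reads, the diMe-Doxo libraries 188 and 134 and the Acla libraries 368 and 265, over 1 read in each control. The log2 difference from diMe-Doxo on the control scale was -2.33 ± 0.36 (SE; edgeR quasi-likelihood test, adjusted p = 6.52e-10). By the same test it was -2.65 under TMM (adjusted p = 7.1e-06) and -3.84 with list totals (adjusted p = 3.15e-07). On chromosome 9 at 137644290-137645336 the reads were 13 and 9, 121 and 123, and 148 and 172. On chromosome 7 at 121861355-121863267 they were 21 and 15, 176 and 141, and 236 and 159. At all 3 loci the Doxo libraries lay below the other 4 by list share without overlap. These regions were chosen for their low adjusted p, so their p-values and their distance from diMe-Doxo follow from that choice.

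The shared regions were spread over all chromosomes but unevenly. Of the listed regions on a chromosome, the portion gained with all 3 drugs was lowest on chromosome 22 (233 of 1238, 18.8%) and chromosome 19 (576 of 2675, 21.5%) and highest on chromosome X (1075 of 3157, 34.1%). On chromosome 19 the shared regions were 84.1% of the diMe-Doxo list, 53.8% of the Acla list and 23.03% of the Doxo list. On chromosome X the same portions were 60.6%, 47.3% and 55.0%. Most regions gained with diMe-Doxo on chromosome 19 were thus also gained with both other drugs, while most regions gained with Doxo there were not.

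The balance between Doxo and diMe-Doxo differed by chromosome as well. The median relative log2 ratio of Doxo over diMe-Doxo was highest for chromosome 19, at 1.01 (0.95 to 1.08 over the 4 library pairs). Chromosome 17 had 0.62 (0.54 to 0.71), chromosome 22 had 0.54 (0.48 to 0.71) and chromosome 16 had 0.33 (0.33 to 0.47). On chromosome 4 it was -0.10 (-0.19 to -0.05). These 4 high chromosomes held 7.66% of the shared regions, 21.1% of those higher with Doxo on all 3 scales and 1.002% of those lower on all 3. On chromosome 19, 175 of 576 shared regions (30.4%) were higher on all 3 scales and 0 lower, and on chromosome 17, 145 of 637 (22.8%) were higher and 3 lower. On chromosome 4, 82 were higher and 83 lower. On the control scale alone 350 shared regions of chromosome 19 (60.8%) were higher and 0 lower by edgeR, and under TMM 305 were higher and 3 lower. Of all regions tested, on any chromosome, 9.18% were higher and 2.71% lower on all 3 scales. On the control scale these were 28.9% and 2.72%, and under TMM 23.6% and 10.6%. Shares over all regions tested on each chromosome were not computed, so whether these counts are particular to shared regions was not tested.

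Between diMe-Doxo and Acla the chromosomes differed less. The median relative log2 ratio of diMe-Doxo over Acla was lowest on chromosome X at -0.23 (-0.29 to -0.13 over the 4 library pairs), where Acla was highest by list share at 612 of 1075 regions (56.9%). It was highest on chromosome 14 at 0.17 (0.08 to 0.21) and chromosome 10 at 0.15 (0.12 to 0.18). On most of the other chromosomes the library pairs ran across 0. On chromosomes 16, 17, 19, 20, 21 and 22 the 2 Acla libraries differed from each other, with median relative log2 ratios of library 1 over library 2 of -0.20, -0.38, -0.40, -0.21, -0.25 and -0.49.

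**Figure D4:**
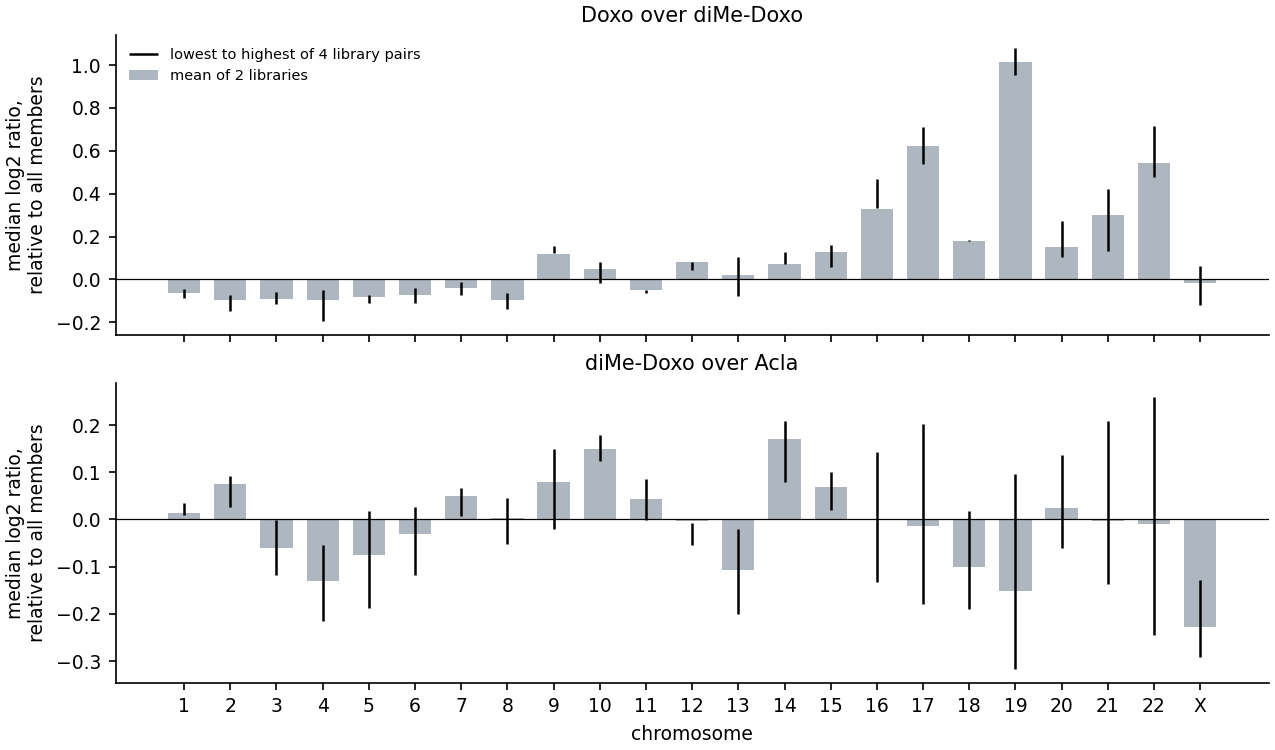
Median relative log2 ratio of list shares over the shared regions (members) of each chromosome, for Doxo over diMe-Doxo (top) and diMe-Doxo over Acla (bottom), with bars for the mean of 2 libraries and lines from the lowest to the highest of the 4 library pairs. Chromosome 19 reaches 1.01 in the top panel, and in the bottom panel the lines of many chromosomes, among them 16, 17 and 19 to 22, cross 0.

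Shared regions lay near each other and neighbours had like drug ratios. The next listed region was also shared after 36.6% of shared regions, against 25.5% after other listed regions. The longest unbroken run held 18 shared regions on chromosome 5 at 178646385-178750435. The median gap between neighbouring shared regions was 32.6 kb. The drug with the highest list share was the same in 63.4% of 28711 neighbouring pairs (62.1% on the control scale), from 72.1% of pairs at most 5 kb apart to 39.4% of the 251 pairs over 1000 kb apart. The squared portions of regions led by each drug add up to 40.5%, the value for pairs formed without regard to position.

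The size of the ratio was shared over distance too. Pearson's r between neighbours in the log2 ratio of Doxo over diMe-Doxo fell from 0.68 at gaps up to 5 kb (4516 pairs) to 0.36 at 50 to 200 kb (7876 pairs) and 0.06 beyond 1000 kb (251 pairs). When one region's ratio came from library 1 of each drug and its neighbour's from library 2, the values were 0.59, 0.29 and 0.05. Neighbours in the first calculation share libraries and therefore their deviations, which the second avoids. For diMe-Doxo over Acla the corresponding values across libraries were 0.34, 0.26 and 0.09. These are descriptions over pairs of regions along the genome.

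**Figure D5:**
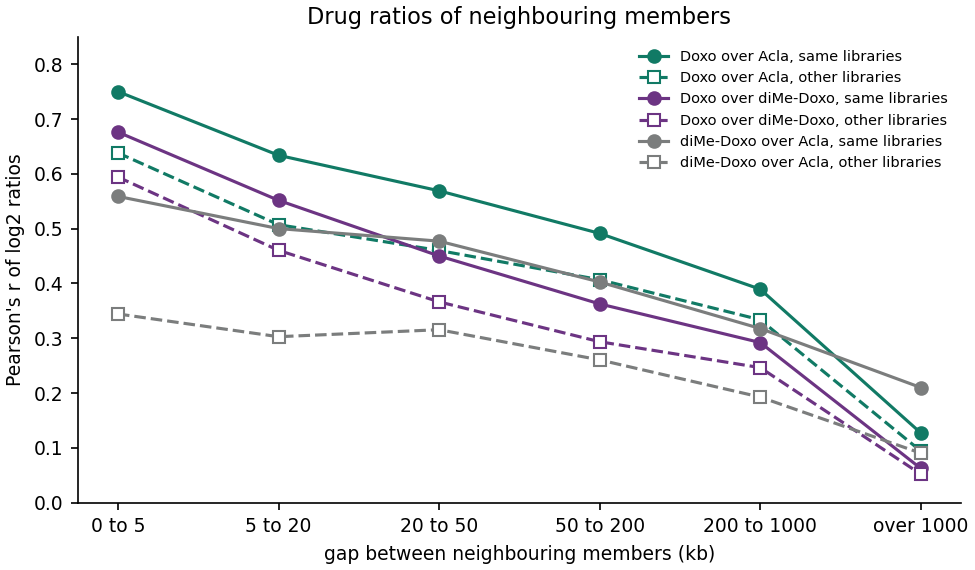
Pearson's r of log2 list-share ratios between neighbouring shared regions (members) by the gap between them (x axis, kb), with both ratios from the same libraries (filled) or from different libraries (open). All lines fall with distance, for Doxo over diMe-Doxo from 0.68 to 0.06 within libraries and from 0.59 to 0.05 across them.

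Most windows dense in shared regions had 1 drug in the lead. Of 588 windows of 1 Mb with at least 15 shared regions, diMe-Doxo was highest by list share at most shared regions in 320, Acla in 189 and Doxo in 33, and 217 windows had no region led by Doxo. On the control scale, tried after the data were seen, the same counts were 5 for diMe-Doxo, 204 for Acla and 262 for Doxo, with 8 windows lacking a region led by Doxo. By share of the total over shared regions they were 185, 223 and 76. That 1 drug led in most such windows held on each scale, while only the number for Acla stayed within 1.5 times of its list-share value. The most shared regions lay on chromosome 8 between 143 and 144 Mb (95 regions, 86 led by diMe-Doxo), followed by chromosome 1 between 2 and 3 Mb (86 regions, 73 led by diMe-Doxo) and between 3 and 4 Mb (81 regions, 74 led by diMe-Doxo). On the control scale diMe-Doxo led 48, 42 and 46 of these, and Doxo 43, 39 and 27. The relative ratio of Doxo over diMe-Doxo was highest on chromosome 7 between 5 and 6 Mb, with a median of 2.51 (2.35 to 2.59 over the library pairs) and 15 of 16 shared regions led by Doxo. It was lowest on chromosome 2 between 19 and 20 Mb at -0.75 (-0.95 to -0.57), where 0 of 33 were led by Doxo (3 on the control scale). On chromosome 14 between 98 and 99 Mb all 18 shared regions were led by Acla on every scale, and diMe-Doxo over Acla was lowest at -0.79 (-0.94 to -0.63). The windows named by their ratios were chosen after the values were seen.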

How the data were processed

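Per drug, the authors deposited 1 list of regions gained over control in K562 ATAC-seq libraries. Per the submitters' processing notes, GRCh37 and DiffBind were used. Neither aligner nor peak caller is named, and versions were not given in the sources used here; since the lists lack a header, the meaning of each column was inferred from its values. The deposited log2 values are group means and folds over control, the deposited p-value and FDR are the authors' own, and the deposited signal is the number of reads in a region multiplied by a factor of its library. No listed p exceeded 0.05 and no log2 fold was under 1.5, so other regions were not analysed here.

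Read counts were recovered by dividing the deposited signal by the value of 1 read, which gave whole numbers within 0.1 reads for 100% of values. Regions of different lists were matched by identical coordinates. Doxo and diMe-Doxo were compared with edgeR 4.0.16 (quasi-likelihood test, R 4.3.3) on the 33140 regions in both lists, without covariates, with p-values adjusted by the Benjamini-Hochberg method over all of them, checked on simulated data. Library sizes were proportional to the geometric mean of the authors' factors for the shared control libraries, divided by the factor of the treated library. TMM, list totals, DESeq2 1.42.0, a minimum mean of 20 reads and each library left out were alternatives. Descriptions used Python 3.11.15.

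The regions, lists and comparisons were chosen with earlier results of these data known. Named regions were the 3 with the highest smallest fold, the 3 most biased to each drug (at least 50 reads on average), the 3 most even (at least 100 reads), the 3 widest, the 3 with the most control reads, and those just inside the p and fold limits. Any others were named after their values were seen. Gene annotation and sequence of GRCh37 were not used here.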

Additional observations from a re-analysis of the deposited data

How the results depend on the processing

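With FDR at most 0.01 and log2 fold at least 2 in every list, 9144 regions were shared. Doxo led at 13581 regions on the scale of the shared controls and at 6804 by share of the total over shared regions, and diMe-Doxo led at 4116 on the control scale. The number higher with Doxo than diMe-Doxo was 2284 with list totals and 4789 with DESeq2, and the number lower was 3478 with TMM, 21827 with list totals and 1365 with DESeq2. With 1 library left out in turn the number lower ran from 159 to 812 and the median log2 difference from 0.11 to 0.35, and the lone library was assumed to vary like the other drug's. That median was -0.12 with TMM, -1.31 with list totals and -0.14 with DESeq2. Among the 2223 shared regions with at least 2 reads in each control library, the median log2 fold for Acla in the authors' deposited table was 2.33. Counted by base pairs, shared regions were 36.2% of all listed sequence, 22.8% on chromosome 22 and 44.5% on chromosome X. At widths of 600 to 1200 bp, 92.7% of shared and 85.9% of other regions had no control peak. The other regions were mixed. At all widths the portion was 92.2% for diMe-Doxo and Acla only, 92.0% for Doxo and Acla only and 95.1% for Acla alone. These lay above the 88.8% of shared regions. It was 79.1% for Doxo and diMe-Doxo only, 87.2% for diMe-Doxo alone and 75.7% for Doxo alone. Counts of windows by leading drug are given with their alternatives in the text. The other 45 values computed under an alternative kept their direction and moved by less than the limits set. No paired analysis was possible because the labels give 1 sample per group and the library values carry no replicate numbers. Of the treated libraries those of Doxo held the fewest reads per shared region, with medians of 34 and 36.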

Other observations

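One shared region had no peak called in any treated library. It lay on chromosome 17 at 39810449-39810597 (148 bp), had a peak in both control libraries and held 1 read in each of them. Its treated reads were 26 and 11 in the Doxo libraries, 30 and 15 in the diMe-Doxo libraries and 22 and 47 in the Acla libraries. It was named after its values were seen.

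Windows differed in how often a gained region was gained with all drugs. Among 1320 windows of 1 Mb with at least 30 listed regions, the portion that was shared had a median of 27.5%. It was highest on chromosome 8 between 84 and 85 Mb, with 27 of 34 regions (79.4%), of which 25 were led by Acla by list share. Next came chromosome 5 between 178 and 179 Mb, with 62 of 96 (64.6%), of which 55 were led by diMe-Doxo by list share, and on the control scale 26 were led by diMe-Doxo and 30 by Doxo. On chromosome 16 between 34 and 35 Mb 46 of 78 listed regions were shared, and Acla led at 39 of them (31 on the control scale). No listed region was shared on chromosome 7 between 65 and 66 Mb (0 of 31), chromosome 18 between 9 and 10 Mb (0 of 30) and chromosome 22 between 22 and 23 Mb (0 of 42).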
